A study of Mus musculus with 6 samples.

Results

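Methylated DNA at microRNA genes was examined in mouse primary mesangial cells, the contractile cells of the kidney glomerulus, by MeDIP-seq, in which an antibody to methylated cytosine pulls down DNA fragments for sequencing. The 3 control samples were set against 3 that had received TGF-β1 (10 ng/ml, 72 h). All cells, controls included, were grown in 25.5 mM glucose with 20% serum and used between passages 3 and 6. A peak belonged to a microRNA gene when its summit lay within 1 kb of a gene that GENCODE vM1 types as miRNA on chromosomes 1 to 19 of mm9. This gave 1129 of 567475 peaks. All peaks on these chromosomes were joined wherever they overlapped by at least 1 bp. Of the 166838 regions formed, 311 held at least 1 peak at a microRNA gene, and 314 of 1468 microRNA genes had such a peak. A peak list shows where the enrichment passed the authors' q cutoff of 0.01, so a region without a peak was below that cutoff and is not shown to be unmethylated. The cell type label has no marker in these data, since peak lists hold no expression.

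A microRNA is cut from a hairpin in a longer transcript, and its mature strand guides Argonaute proteins to messenger RNAs that pair with its seed, the bases at positions 2 to 8. Many hairpins lie in introns of protein-coding genes and are made with them. DNA methylation near the start of a microRNA transcript is a known way of silencing it, and in fibrotic kidney several families are followed closely: miR-200 and its relatives keep epithelial character, miR-192, miR-194 and miR-215 are abundant in kidney, and TGF-β1 is the main profibrotic signal to which mesangial cells answer.

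The hairpins in the annotation are of several kinds. Of the 1468 genes, 462 had a Mir symbol, 107 had a clone name but a hairpin found in RefSeq, and 899 had a clone name only, such as AC122372.1. By symbol or exact hairpin sequence, 425 genes, 108 of them with a peak, were found in the RefSeq microRNA table (GRCm38.p6). The mature strands below are those on which the comparisons turn: a pair from the miR-101 family, of which a single member had peaks after TGF-β1 only, the arms that the study names for precursors with a peak, miR-27a with a control-only region outside the window, let-7b and let-7c, whose shared region was called after TGF-β1 only, and strands from 3 multi-copy families described further on. Capitals mark the seed.
miR-101b-3p: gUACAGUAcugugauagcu
miR-101a-3p: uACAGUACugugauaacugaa
miR-26a-5p: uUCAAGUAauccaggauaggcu
miR-127-3p: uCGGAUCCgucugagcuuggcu
miR-433-3p: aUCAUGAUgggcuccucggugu
miR-96-5p: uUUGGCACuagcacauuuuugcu
miR-183-3p: gUGAAUUAccgaagggccauaa
miR-181c-3p: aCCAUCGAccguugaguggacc
miR-27a-3p: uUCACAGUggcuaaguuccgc
let-7b-5p: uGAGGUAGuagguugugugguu
let-7c-5p: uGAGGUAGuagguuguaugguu
miR-680: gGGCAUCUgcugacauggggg
miR-682: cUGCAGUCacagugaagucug
miR-3471: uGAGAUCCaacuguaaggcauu

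The entry of miR-101b starts 1 base before that of miR-101a, and the strands share a run of 15 bases, so the capitals mark seeds that are offset by 1 base. let-7b and let-7c have the same seed.

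At the window of 1 kb, the number of microRNA genes with a peak did not separate the groups. It was 158, 202 and 209 in control samples 1, 2 and 3, and 209, 215 and 200 in TGF-β1 samples 1, 2 and 3. Control 1 was the low value and the other 5 samples lay together. The means were 189.7 ± 27.65 (SD, n = 3) in control and 208 ± 7.55 (SD, n = 3) after TGF-β1, a difference of 18.33 genes (p = 0.5 by a two-sided exact permutation test over samples, which cannot go below 0.1). Every TGF-β1 sample had more reads (12634300 to 13291419) than any control sample (9407103 to 11494356), and per 1000000 reads the counts were 18.3 ± 3.08 genes in control and 16.2 ± 1.01 after TGF-β1, the opposite order. Depth and treatment cannot be told apart here. As a share of all peaks on these chromosomes, peaks at microRNA genes made up 0.2% ± 0.01296 in control and 0.1976% ± 0.01076 after TGF-β1 (exact permutation test, p = 0.8, n = 3). The lowest shares were those of control 1 (0.1852%) and TGF-β1 3 (0.1858%), whose peaks also had the lowest mean GC content, 47.29% and 47.74% against 48.1% to 48.7% in the others. The part of GC content in the shares was not tested. The labels do not say whether the samples of a group came from separate cultures, so these p-values measure the spread between the samples only.

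**Figure D1:**
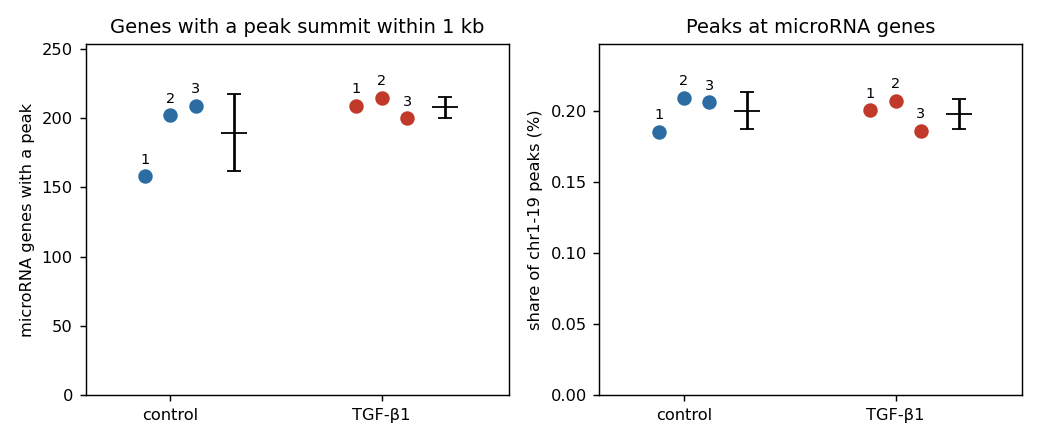
Left, number of microRNA genes with a peak summit within 1 kb in each sample; right, share (%) of chr1-19 peaks at microRNA genes. Numbered points are replicates and the black marks are the mean and SD of 3 samples. Control 1 (158 genes) is the lowest point on the left, and control 1 and TGF-β1 3 are the lowest on the right.

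Most microRNA regions that were called reproducibly were called in both groups. In all 6 samples 87 of the 311 regions (28%) had a peak, against 24.5% of all regions on these chromosomes. A peak in a single sample was seen at 61 regions (19.6%, against 27.3% of all regions). Regions called in at least 2 more TGF-β1 than control samples numbered 23 (7.4%, against 7.84%), and regions called in at least 2 more control than TGF-β1 samples numbered 14 (4.5%, against 3.13%). The strict patterns were rare: 3 regions had peaks in the 3 TGF-β1 samples and no control sample (0.965%, against 0.946%), and 2 had peaks in the 3 control samples and no TGF-β1 sample (0.643%, against 0.233%). Control 1 and TGF-β1 3, the libraries of lowest peak GC content, were the only samples with a peak at 1 region (0.322%, against 1.26%) and the only samples without one at 8 (2.57%, against 1.81%). The TGF-β1 shares were near those of all regions, and the control shares rest on 14 and 2 regions.

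**Figure D2:**
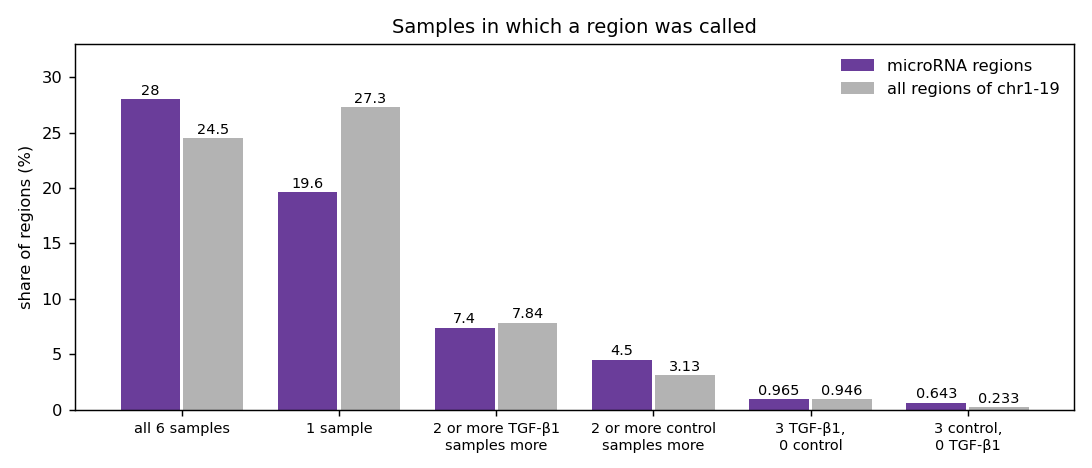
Share (%) of regions called in the samples named under each pair of bars, for the 311 microRNA regions (purple) and all 166838 regions of chr1-19 (grey). Regions in all 6 samples made up 28% against 24.5%, and both kinds of one-sided region were under 1%.

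The clearest region called after TGF-β1 alone lay over Mir101b. miR-101 is known for repressing Ezh2, the methyltransferase that writes H3K27me3. Mir101b lies in an intron of Rcl1 on its strand, and the region (mm9, chr19:29209465-29209889) had its highest summit 29 bp upstream of the hairpin. No peak was called in the 3 control samples, and the highest pileup, which counts extended reads at the summit, was 21, 26 and 30 in TGF-β1 samples 1, 2 and 3. These were 1.65, 2.06 and 2.26 reads per 1000000 and 4.14 to 4.91 times the local background, well above the lowest pileup called in those samples, 9, 9 and 10 reads. At a fold enrichment of at least 5 none of these peaks was left and the difference was 0 samples, while it was 3 under the other alternatives that kept the 6 samples. Its paralogue Mir101a had no peak within 1 kb, and the nearest summit, 3771 bp away, was called in control 2 only (11 reads).

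Both other regions of this kind lay at genes that resembled genes elsewhere. AC122372.1, which resembles Mir682, had pileups of 16, 18 and 21 after TGF-β1 (chr10:92049718-92050054, intergenic, summit 68 bp upstream). CR974486.1, which resembles Mir680-1, had 18, 15 and 18 (chr12:73230128-73230517, in an intron of 4930403N07Rik). Its highest summit lay 968 bp downstream of the gene centre, near the edge of the window. No control sample had a peak at either region, and these peaks stood closer to the lowest pileup called than those of Mir101b.

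Called in the 3 control samples alone were Mir3471-1, with pileups of 14, 16 and 13 (chr4:10773258-10773624, intergenic, summit 664 bp upstream), and AL833780.1, with 12, 15 and 12 (chr2:128749970-128750542, intergenic). No control sample had a called peak below 8 reads, so these peaks too were low. Mir3471-1 is the hairpin of miR-3471 and 1 of 51 similar genes, and AL833780.1 falls among the 261 genes that resemble Mir466f-1. Of these 5 one-sided regions, that of Mir101b alone lay at a gene that resembled no other.

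Among regions with a difference of 2 samples, several carried microRNAs of known function. The hairpins of let-7c-2 and let-7b, which hold back Lin28 and growth programmes, shared a region (chr15:85537295-85537672) called in TGF-β1 1 and 2 with 13 reads each and in no control. Mir199a-2, made from the Dnm3os transcript opposite Dnm3, had a region (chr1:164148087-164148443) with 12 reads in TGF-β1 1 and 14 in TGF-β1 3 and none called in control. With peaks held to a -log10 q of at least 5, its difference was 1 sample, and at a fold enrichment of at least 5 neither this region nor that of let-7 had a peak left. Mir1966, in an intron of Fam65a, was called in control 1 (32 reads) and in all TGF-β1 samples (34, 41 and 38 reads). In the other direction Mir30b, whose family is abundant in kidney epithelium and opposes connective tissue growth factor, had 17, 13 and 19 reads in control and 16 in TGF-β1 1 only (chr15:68169134-68169493). Mir324, a microRNA in an intron of Acadvl, had 15 and 19 reads in control 2 and 3 at chr11:69825750-69826091. A neighbouring region, in a coding exon, was called in control 1 and in TGF-β1 1 and 3, so that peaks near Mir324 were seen in every sample but TGF-β1 2.

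The study also profiled microRNA expression, and the precursors of the changed microRNAs it names were looked up one by one. On these chromosomes there were 16, and 6 of them (37.5%) had a peak within 1 kb, against 21.4% of all microRNA genes. The 6 lay in 4 regions. Mir26a-2, in an intron of Ctdsp2, a phosphatase gene with which miR-26a is co-expressed, had pileups of 24, 28 and 27 in control and 34, 29 and 40 after TGF-β1 (chr10:126432290-126432807). Raw heights did not overlap between groups, but per 1000000 reads they did, at 2.33, 2.98 and 2.35 against 2.67, 2.3 and 3.01. The log2 fold change was 0.15 ± 0.196 (SE, limma adjusted p = 0.999). Its second copy, Mir26a-1, had no peak within 1 kb, and the nearest region, 2537 bp away, was called in control 1 (16 reads) and in the 3 TGF-β1 samples (21, 18 and 26 reads).

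Mir127 and Mir433 lie opposite Rtl1, a paternally expressed imprinted gene whose transcript they help to cut. Their region (chr12:110830701-110831391) was called in control 1 and 3 with 19 and 18 reads and in TGF-β1 samples with 25, 19 and 25. The highest summit was 18 bp from the Mir127 hairpin, and Mir433 came within 1 kb only through a summit of control 3 at 823 bp. Mir183 and Mir96, of a cluster known from sensory cells, shared a region with 24 reads in control 3 and 19 in TGF-β1 2. Mir182, also of that cluster, had a separate region called in all samples (20, 26 and 32 reads in control, 27, 24 and 26 after TGF-β1). Its summits came within 1 kb of the hairpin in the 3 control samples and in 1 TGF-β1 sample only, the nearest at 977 bp. Mir181c, together with Mir181d, had 16 and 16 reads in control 2 and 3 and 19 in TGF-β1 1. None of the 4 regions of the named precursors differed by more than 1 sample between groups. Of all regions, 7.84% differed by at least 2 samples toward TGF-β1 and 3.13% toward control, so 4 regions show little.

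Of the 10 named precursors without a peak in the window, Mir379 was just outside it, with a summit at 1038 bp. Mir27a had its nearest summit at 2013 bp, in a region (chr8:86730382-86730739) called in the 3 control samples (18, 15 and 16 reads) and in no TGF-β1 sample. Mir130b at 2128 bp had 13 reads in control 3 only. For Mir485, Mir200a, Mir130a, Mir3099 and Mir181a-2 the nearest summit lay 6132 to 34205 bp away, and that of Mir130a was called in all samples (25, 21 and 28 reads in control, 27, 25 and 30 after TGF-β1). Of the named microRNAs on chromosome X, outside these regions, Mir503 and Mir351 had their nearest summits at 3982 and 4683 bp, in a region called in 5 samples.

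**Figure D3:**
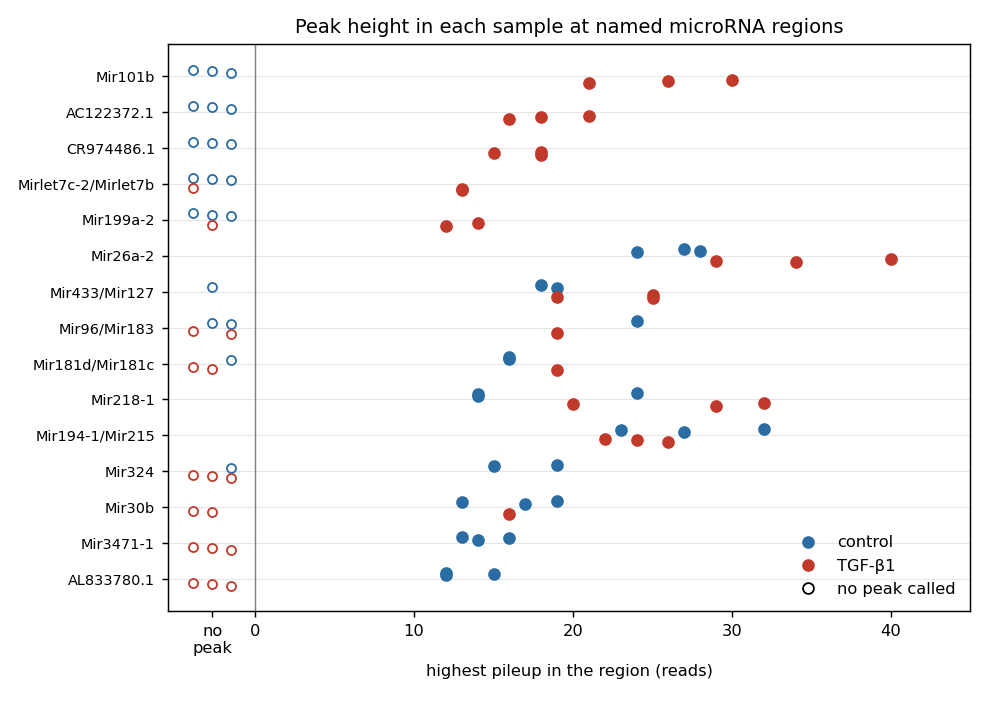
Highest pileup (reads) in each region, with 1 filled point for each sample that had a peak (blue control, red TGF-β1) and open points left of the line for samples without a peak call. Mir101b has 3 red points at 21 to 30 and no control peak, while Mir3471-1 has 3 blue points at 13 to 16.

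Where a region had a peak in all 6 samples, its height was compared with limma on log2 of the highest pileup, centred on the median of each sample, across all 40840 such regions. None of the 87 microRNA regions passed an adjusted p of 0.01 with an absolute log2 fold change above 2, and neither did any of the 40840 (0%). Over the 87 regions the median pileup was 21 to 30 reads per sample, against a lowest called pileup of 8 to 10. A change that large could thus take a typical region below the cutoff in a single group and out of the test. The test therefore cannot show that such changes are absent. At an unadjusted p below 0.05 there were 2 microRNA regions (2.3%), against 4.14% of all regions. Of the pair, 1 was higher after TGF-β1, as were 1.95% of all regions at this p, and 1 was lower, as were 2.19%. The median log2 fold change was 0.03 over the microRNA regions and -0.00467 over all regions, and single values ran from -0.54 to 0.46, with 49 above and 38 below 0. Scaled by reads instead, 33 were above and 54 below 0, the median of all regions being -0.0956, so no common direction is given.

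The 3 smallest p-values in each direction belonged mostly to genes with clone names. AC115121.2, of the mir-680 family, had 26, 18 and 23 reads in control and 14, 19 and 21 after TGF-β1, a log2 fold change of -0.54 ± 0.223 (SE, limma adjusted p = 0.999). AC090443.1 had 13, 13 and 19 reads in control and 29, 21 and 22 after TGF-β1, or 0.46 ± 0.218 (SE, limma adjusted p = 0.999). Among these 6 regions the only Mir symbols were those of Mir194-1 and Mir215, which share a cluster opposite Iars2. Their region (chr1:187137354-187137764) had 27, 23 and 32 reads in control and 26, 24 and 22 after TGF-β1, with a log2 fold change of -0.40 ± 0.207 (SE). Per 1000000 reads its heights were 2.62, 2.44 and 2.78 against 2.04, 1.9 and 1.66. On that scale the 40840 regions together were lower after TGF-β1, with a median log2 fold change of -0.0956. At an unadjusted limma p below 0.05, 2315 of them were lower and 209 higher. The region was also picked for its small p. The other three, AL929371.1 (0.45), AC122806.1 (0.46) and AL671866.2 (-0.35), had log2 fold changes of like size. Mir218-1, in an intron of the axon guidance gene Slit2, followed with 14, 14 and 24 reads in control and 29, 20 and 32 after TGF-β1, a log2 fold change of 0.44 ± 0.226. At a limma adjusted p of 0.999 for each, these regions did not pass the test.

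Among the regions called in every sample, the highest per 1000000 reads lay at AC166252.2 (chr6:47725371-47725964), with 87, 88 and 112 reads in control and 116, 93 and 134 after TGF-β1, a mean of 9.01 reads per 1000000 against a median of 2.23 over the 87 regions. Next came AC166781.1 (4.35 per 1000000), AC113178.1 in an intron of Ano6 (3.65), AC102528.1 (3.56), AL645963.1 in an intron of Prkca (3.51) and AC167229.2 (3.26). AC166781.1 varied widely within control, at 24, 51 and 73 reads. AC166252.2 and AC113178.1 resemble Mir3471-1, and AC102528.1 and AC167229.2 belong to the mir-680 family.

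Of the 87 regions, 26 carried a Mir symbol. The highest of these were Mir678, in a coding exon of Prmt2 (30, 28 and 46 reads in control, 39, 41 and 43 after TGF-β1), Mir877, a hairpin in an intron of Abcf1 (24, 39 and 47 against 40, 36 and 38), and Mir152, within Copz2 (41, 30 and 38 against 33, 36 and 46). miR-152 is known to target Dnmt1, the maintenance DNA methyltransferase. Others were microRNAs of other lineages: Mir142 of blood cells (16, 23 and 23 reads against 21, 21 and 18), the Mir290 cluster of embryonic stem cells (24, 14 and 25 against 20, 11 and 30) and Mir202 of the gonads (25, 23 and 20 against 24, 28 and 28). The Hox cluster genes Mir10a and Mir196a-2, and Mir125b-2, Mir181a-1 with Mir181b-1, and Mir195 were called in all samples as well. Control and TGF-β1 heights overlapped at each region named in these sentences.

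Lists of microRNAs by function had a peak at 16.7% to 66.7% of their genes, against 21.4% of all microRNA genes. Of 34 genes tied to TGF-β and fibrosis, 8 had a peak, and Mir215 alone was called in all samples. Mir21, Mir192, the miR-29 genes, Mir214, Mir155 and Mir34a had none. Of 14 epithelial genes 4 had a peak, at Mir194-1 and the Mir183 cluster, and none was called for Mir200a, Mir200b, Mir200c, Mir141, Mir429, Mir203 or Mir205. Of 10 muscle genes 4 had a peak. Mir499, within Myh7b, had 20 and 25 reads in control 2 and 3 and 19, 23 and 22 after TGF-β1, and Mir143, a smooth muscle microRNA, had 22, 11 and 18 in control and 26 and 27 in TGF-β1 2 and 3. Mir145 beside it was called in 3 samples, and Mir208a, within Myh6, in 2 samples of each group. Of 18 neuronal genes 3 had a peak, led by Mir129-2 in 5 samples and Mir219-2 in 4 (35 and 34 reads in control 2 and 3, 31 and 42 in TGF-β1 1 and 2). The 6 hairpins of the miR-17 cluster with a peak, in the Mir17hg transcript, shared a single region called in 2 samples of each group (19 and 12 reads against 16 and 22). Of 8 let-7 genes 2 had a peak, both described above. Hairpins of a cluster share their peaks.

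Imprinted microRNA clusters differed from each other. The interval from Dlk1 to Dio3 on chromosome 12 is 828.3 kb long and holds the maternally expressed clusters beside Meg3, Rian and Mirg. There 17 of 57 microRNA genes (29.8%) had a peak, in 9 regions, against 21.4% of all microRNA genes. None of the 9 regions was called in all 6 samples, against 24.5% of all regions. Even so, 3 genes, Mir376b, Mir300 and AC121784.2, had a peak within 1 kb in each sample through separate regions. The tallest lay by Mir376b and Mir300 (chr12:110962247-110962744), with 28 and 35 reads in control 2 and 3 and 32, 41 and 31 after TGF-β1, and control 1 had a separate peak of 11 reads beside it. Mir370, in Rian, was called in control 2 and 3 (25 and 32 reads) and after TGF-β1 (33, 24 and 19). None of the 9 differed by 2 or more samples between groups, against 7.84% of all regions toward TGF-β1 and 3.13% toward control. With 9 regions this cannot show that such differences are rare there. By contrast, none of the 119 hairpins within Sfmbt2 on chromosome 2 had a peak in any sample. Their span of 52.99 kb held 0 peaks in each of the 6 samples, although Sfmbt2 as a whole held 7, 7 and 8 peaks in control and 10, 8 and 12 after TGF-β1. The CpG density around these hairpins had a median of 9.41 per kb, near the 9.07 per kb of all genes without a peak, a set that includes them. Of all microRNA genes in the class of 8.738 to 11.46 CpG per kb, however, 17.01% had a peak. Many of the hairpins belong to families of similar genes, described further on, and only uniquely mapped reads were used by the authors. The parts of CpG density and of this likeness were not tested. Outside Sfmbt2, 23.3% of 1349 genes had a peak.

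**Figure D4:**
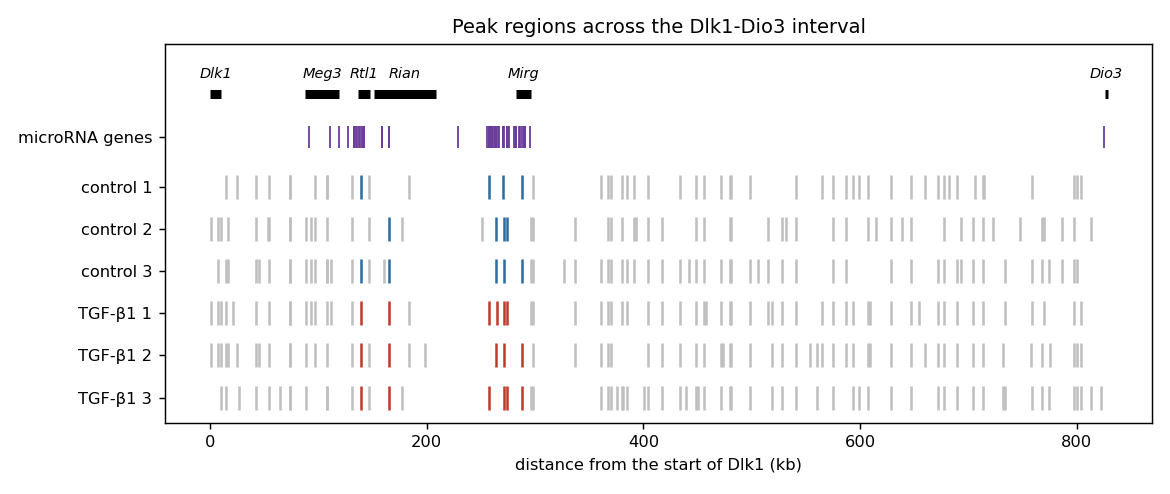
Distance (kb) from the start of Dlk1. Black bars are genes, purple ticks microRNA genes, and each row below holds the regions called in that sample, coloured where they are microRNA regions and grey elsewhere. The coloured ticks recur in both groups between 139.7 and 288.6 kb.

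Beyond the rule, microRNA regions were slightly richer in CpG than all regions, and a large group of them lay at genes of a repeated sequence. The 301 bp around the highest summit held a median of 9 CpG and 50.2% GC, against 7 CpG and 48.5% for all regions. Among regions called in all 6 samples the medians were closer, at 10 CpG and 49.5% GC against 9 CpG and 48.8%. The medians include the mir-680 family, described below, and were not taken without it. Coding exons held 12.5% of the microRNA regions and 8.01% of all regions, introns 32.8% and 43.1%. With the genes ranked by CpG density within 1 kb and cut into 5 classes, a peak was called at 4 of 295, 35 of 292, 50 of 294, 127 of 294 and 98 of 293 genes from the lowest to the highest class. The highest class, at 17.39 CpG per kb and above, thus had fewer genes with a peak than the class below it, in which 43.2% had one.

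Genes were grouped into families where they shared at least 30% of their 11-letter words, a grouping made after the positions of the summits had been seen. Of the 1468 genes, 652 resembled no other, and 151 of these (23.2%) had a peak. The family of Mir680-1 stood apart. It had 94 genes on 18 chromosomes, with a median length of 110 bp, of which Mir680-1 and Mir680-3 alone had a Mir symbol, and 58 of them (61.7%) had a peak, against 18.6% of the 1374 other genes. By sample, 39, 40 and 45 of its genes had a peak in control and 49, 47 and 47 after TGF-β1, so that every TGF-β1 sample, each of them also deeper, had more than every control sample. All peaks on these chromosomes rose much alike, at 79911, 88428 and 98222 in control and 99420, 98146 and 103348 after TGF-β1. There only control 3 and TGF-β1 2 were out of that order. For the family the counts were also divided by reads. Per 1000000 reads these were 3.78, 4.25 and 3.91 genes in control and 3.84, 3.72 and 3.54 after TGF-β1, and the groups overlapped. It supplied 18.5% of all microRNA genes with a peak and 31.9% of those with a peak in all 6 samples.

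The position of the peaks was equally regular. At 54 of the 58 genes the highest summit lay within 500 bp upstream of the gene centre, with a median at -142.5 bp and quartiles at -206.5 and -92.75 bp. Of 497 summits in this 500 bp upstream of all microRNA genes, 263 belonged to the mir-680 family, and in the 500 bp downstream of all genes it had 1 of 257. CpG followed the same line: the 500 bp upstream held 14.7 ± 4.69 CpG (SD over genes) where the gene had a peak and 9.75 ± 2.97 where it had none, while the 500 bp downstream of genes with a peak held 5 ± 2.29. Around other microRNA genes the means were 8.24 upstream and 8.07 downstream. An example is Mir680-1 itself (chr6:129641330-129641699), with 14 and 20 reads in control 2 and 3 and 17, 16 and 18 after TGF-β1.

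**Figure D5:**
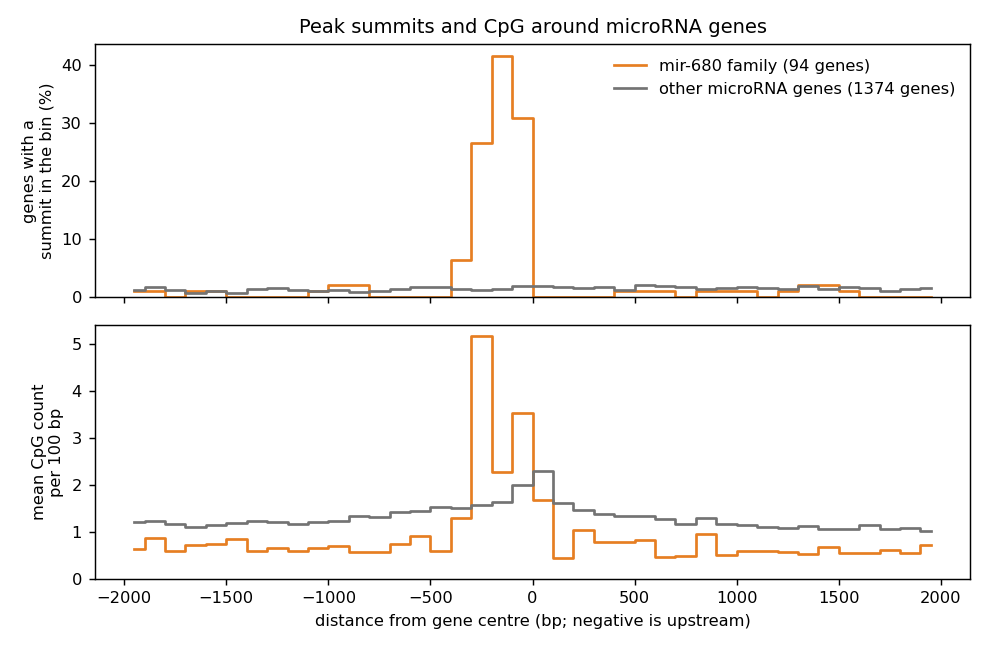
Top, share (%) of genes with a peak summit in each 100 bp bin around the gene centre, over all 6 samples; bottom, mean number of CpG in the bin. Orange is the mir-680 family (94 genes), grey the other 1374 microRNA genes. The family has its summits between -400 and 0 bp, where its CpG count reaches 5.15 in a bin. The grey line stays at or below 2.11% in the top panel and rises to 2.3 CpG at the gene in the bottom panel.

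Of the 62 regions of the mir-680 family, 30 (48.4%) were called in all samples. In at least 2 more TGF-β1 than control samples 5 were called (8.06%, against 7.84% of all regions). In at least 2 more control samples 0 were called (0%, against 3.13% of all regions). Without the family, 57 of 249 microRNA regions (22.9%) were called in all samples, below the 24.5% of all regions. The other 14 families of at least 10 genes had a peak at 14.5% of their 613 genes, and families of 2 to 9 genes at 14.7%, both below the 23.2% of genes that resembled no other. Among the 14 the share ran from none of the genes resembling Mir344d-1 (10 genes), Mir669k (33) or Mir467c (15) to 9 of the 13 resembling Mir682, with 8 of 12 for Mir692-2a. The families of Mir669k and Mir467c lay wholly within Sfmbt2, as did 56 of the 261 genes resembling Mir466f-1. Of the 12 genes resembling Mir692-2a, 0, 7 and 7 had a peak in control samples 1, 2 and 3, and 5, 4 and 2 in TGF-β1 samples 1, 2 and 3. The lowest counts were thus those of control 1 and TGF-β1 3, the libraries whose peaks had the lowest GC content. At the other end, 27 of the 261 genes that resemble Mir466f-1 (10.3%) and 4 of the 51 that resemble Mir3471-1 had a peak. Only uniquely mapped reads were used by the authors, and how alike the sequences under the peaks are was not measured. A peak at a family member may thus be less certain to come from that copy than a peak at a gene like Mir101b.

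The window of 1 kb was not a natural boundary. The nearest summit lay inside 27 genes, 1 to 200 bp away from 106 and farther off, up to 1000 bp, for the rest of the 314, while 180 more genes had it at 1001 to 2000 bp. Just inside were Mir182 (977 bp), AC155162.1 (995 bp) and AL591584.1 (1000 bp), and just outside AC125186.2 (1001 bp), Mir5110 (1003 bp) and AC160118.1 (1020 bp).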

How the data were processed

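MeDIP-seq peak lists of 3 control and 3 TGF-β1 samples were analysed, grouped by the treatment label. Per the study's methods, the authors mapped reads to mm9 with BWA (version not given in the sources used here) and called peaks in each sample with MACS2, uniquely mapped reads only, at a q cutoff of 0.01. The file headers give MACS 2.1.0.20150731. The deposited pileup is a signal value, not normalized for depth, the deposited fold enrichment is a ratio to local background, and its deposited p-values and q-values were written as -log10. Reads in uncalled regions were not analysed, so the count test of the study could not be run. The depth was 9407103 to 13291419 reads per sample, and the lowest pileup called was 8 to 10 reads.

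Peak summits within 1000 bp of GENCODE vM1 miRNA genes on chromosomes 1 to 19 chose the peaks. All peaks overlapping by at least 1 bp were joined, and patterns count a region in a sample if any peak of that sample lies in it. A gene's own count uses summits only. Genome sequence was NCBIM37, the assembly of mm9. The RefSeq table (GRCm38.p6) gave sequences and names, no coordinates. Families joined genes that shared at least 30% of the 11-letter words of the shorter gene, directly or through a chain of other genes. Those of at least 10 genes were examined singly. Of the 94 genes of the mir-680 family, 83 shared that much with Mir680-1 itself, and the median share with it was 39.4%. Of the listed genes, 2 muscle, 2 neuronal and 3 let-7 genes had no entry under their symbol on these chromosomes and were left out.

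Single values were compared by exact permutation tests over the 20 assignments of samples. Regions called in all 6 samples were compared with limma 3.58.1 in R 4.3.3 (lmFit, then eBayes with its trend option) on log2 highest pileup, with Benjamini-Hochberg adjustment over 40840 regions. The test was checked on simulated data of those regions, with log2 changes of 3 and no peak calling step. Other calculations used Python 3.11.15.

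Named regions were the precursors named in the study, all regions called in every sample of a single group and none of the other, the 6 highest regions called in all samples, in each direction the 3 regions of smallest limma p, and list members with most samples called. Regions with a difference of 2 samples, Mir218-1, the other named regions called in all samples and the families were chosen after their values were seen. Members and lists were chosen with earlier results of these data known.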

Additional observations from a re-analysis of the deposited data

How the results depend on the processing

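The counts of called regions follow the window and the libraries, and each library left out loosens the strict rules by construction. With summits within 200 bp, 50 regions were called in all samples, 0 in the 3 control samples alone, 13 in at least 2 more TGF-β1 and 3 in at least 2 more control samples. Within 5 kb these counts were 304, 5, 96 and 39, with 13 regions in the 3 TGF-β1 samples alone. The window does not alter all regions, of which 7.84% were called in at least 2 more TGF-β1 samples. In at least 2 more control samples 3.13% of them were called. Shares of the microRNA regions are not given for these windows. Regions in the 3 control samples alone numbered 1 at a -log10 q of at least 5, and 1 when only the peaks that met the rule were joined. The difference in share of peaks (TGF-β1 minus control) turned positive with summits within 200 bp (0.00714 percentage points, exact permutation p = 0.1, the smallest possible), with a fold enrichment of at least 5 (0.00648) and with any overlap of the peak (0.000317), and the difference in genes became -2.17 per 1000000 reads. With summits within 200 bp the difference in genes was 15.67, also at an exact permutation p of 0.1. The gene counts in that window were not divided by reads. After the data were seen, leaving out control 1 and TGF-β1 3, whose peaks had the lowest GC content, gave 10 regions in at least 2 more TGF-β1 samples, and leaving out the mir-680 family gave 57 regions in all samples. The Mir181c region was called in 1 more TGF-β1 sample, in place of 1 more control sample, when peaks up to 200 bp apart were joined.

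With each sample left out in turn, the difference in genes ran from 2.5 to 28 and that in share from -0.00984 to 0.00347. Regions in all samples ran from 88 to 111. Regions in all TGF-β1 samples alone ran from 5 to 8 and in all control samples alone from 2 to 8 (8 without control 1, 4 without TGF-β1 1 or 3). Regions in at least 2 more TGF-β1 samples ran from 6 to 61 (37, 61 and 57 without controls 1, 2 and 3, and 6, 8 and 7 without TGF-β1 samples 1, 2 and 3), and in at least 2 more control samples from 3 to 27 (8, 3 and 3, and 27, 23 and 25). Leaving out a sample changes these rules for all regions alike. The shares over all regions were not calculated for it, so these counts show no lean of the microRNA regions. MicroRNA regions at an unadjusted limma p below 0.05 ran from 2 to 9. They were 5 of 111 without control 1, 9 of 91 without control 3 and 5 of 88 without TGF-β1 1. Of all regions, 6.13%, 5.53% and 3.39% had such a p in these fits. With fold enrichment they were 4 of 87, against 4.41% of all regions. Among regions called in at least 3 samples they were 8 of 207, against 4.04%. No microRNA region passed the adjusted thresholds under any setting.

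Same-numbered samples did not deviate together (correlations of -0.0467, 0.0428 and -0.129), so the numbers were not taken to pair samples. With a replicate block, 3 of 87 microRNA regions had an unadjusted limma p below 0.05, against 3.64% of all regions, and 0 passed the thresholds. The exact sign-flip p, at least 0.25 by design, was 0.5 for genes and 0.75 for the share.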
